A study of Mus musculus with 3 samples.

Results

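The earliest change on record in this experiment is the step from 0 h to 2 h of doxorubicin in B16 cells, a mouse melanoma line, read as the ratio of 2 of the 3 arrays of the series. Both cultures were grown in medium with serum and the drug was given at 1 µg/ml, with 1 Affymetrix Mouse430_2 array per time point and a further array at 4 h. Of 45101 probe sets on the array, 15785 with a single gene name passed a filter on low signals, and they stood for 9723 of the 18193 gene symbols on the array. A gene was read from whichever passing probe set was brightest on average, and a ratio is log2 of the 2 h signal over the 0 h signal, so that -1 is 2-fold lower at 2 h. With 1 array per time point there is no replicate check and no test, and every value below compares these arrays rather than the conditions. No untreated culture at 2 h was analysed here, so doxorubicin cannot be told apart from 2 h in culture or from handling. In RNA from whole cultures, fewer cells of a kind and less RNA per cell cannot be told apart either. The scale sets the 2% trimmed mean of each array to 500, so a general loss of mRNA from all genes would not show.

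Doxorubicin is an anthracycline that slides between DNA base pairs and traps topoisomerase II on broken DNA, and anthracyclines are also known to impair RNA synthesis. The level of an mRNA follows its synthesis and its decay, so an mRNA that decays quickly tracks a change in synthesis sooner than one that decays slowly. Immediate early genes, feedback inhibitors of growth factor signalling and many transcription factors are textbook examples of short-lived mRNAs. The mRNAs of ribosomal proteins, proteasome subunits and respiratory chain subunits are long-lived. Classes of melanosome, glycolysis and cytoskeletal genes were counted as long-lived here as well. Half-lives were not measured in these cultures.

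The sample titles and source fields name B16 melanoma, whereas the description field names murine bone marrow-derived macrophages and, for the treated samples, an "ET" treatment that is not expanded. All 12 pigment cell markers reached a signal of 200 at 0 h and 11 of 12 at 2 h, with Tyrp1, Pmel and Gpnmb the brightest by their mean over the 3 arrays (42568, 35665 and 33982 at 0 h, when Dct read 35050). Of 15 macrophage markers, 6 reached 200 at 0 h and 5 at 2 h, and their signals ran from 19.1 to 1884 at 0 h and from 9.50 to 3044 at 2 h, with Cd68 the brightest. Csf1r, the receptor for macrophage growth factor, read 522, 424 and 376 at 0, 2 and 4 h on the probe set used, and 261, 509 and 288 on its other passing probe set. Of 9 fibroblast, 7 lymphocyte and 7 endothelial markers, 4, 2 and 1 reached 200 at both times, and the part of such cells in the results was not tested. The median signal over all probe sets was 154 at 0 h and 136 at 2 h, and the arrays were washed on modules 3 and 4 of a fluidics station, which with 1 array each cannot be told apart from time.

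The ratios leaned to the lower side at 2 h. In all, 553 genes (5.69%) were at least 2-fold lower and 137 genes (1.41%) at least 2-fold higher, so that 80.1% of the genes past 2-fold were lower. At the level of probe sets the shares were 5.68% lower and 1.66% higher, or 896 and 262 of 15785. The lean grew with size: 1452 genes were at least 1.5-fold lower against 644 higher, 70 against 10 past 4-fold, and 9 against 0 past 8-fold. The middle of the distribution stayed near 0, with a median of -0.01 and quartiles at -0.36 and 0.26. Lower and higher genes also differed in where they started, which picking genes by ratio after a filter on mean signal in part fixes beforehand. The median lower gene went from a signal of 774 to 285 and the median higher gene from 164 to 438, whereas over the 9723 genes the medians were 836 and 743. Some ratios are bounds, because 13 lower genes were under the floor of 100 at 2 h and 22 higher genes were under it at 0 h. The split depends on the scale: with equal medians it was 371 lower and 231 higher, after quantile normalization 401 and 233, and on a spike-in scale 917 and 71, so lower genes outnumbered higher ones in all 4 scalings while their share ran from 61.6% to 92.8%. The spike-in scale rests on the BioB, BioC, BioD and Cre control probe sets and is not a measure of mRNA per cell.

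**Figure D1:**
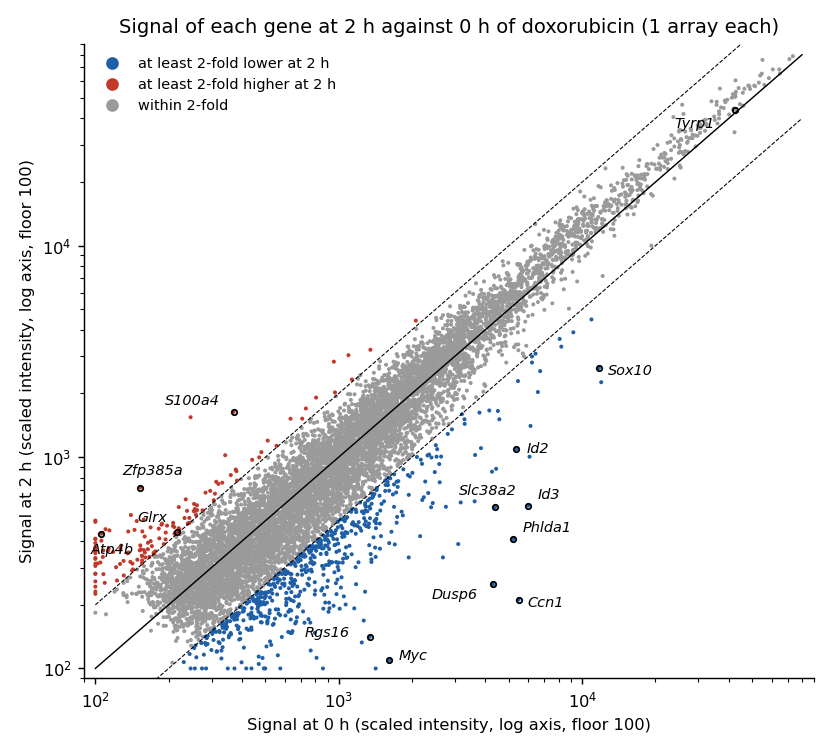
Signal of each of the 9723 genes at 2 h against 0 h (scaled intensity, both axes logarithmic, signals under 100 drawn at 100), with the diagonal solid and 2-fold lines dashed. The 553 lower genes reach far below the diagonal at all but the brightest signals, while most of the 137 higher genes start near the floor. Picking genes by ratio after a filter on mean signal in part fixes these starting levels.

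The lower genes with the firmest probe-level backing were led by Ccn1, which encodes the secreted matricellular protein CYR61. The brighter probe set of Ccn1 read 5477 at 0 h, 212 at 2 h and 117 at 4 h, a ratio of -4.69 at 2 h (25.9-fold lower), and its other passing probe set read 3379 and 116, a ratio of -4.86. Both probe sets thus lost most of their signal by 2 h, and their SD was 0.12. Rgs16, which shortens signalling from G protein-coupled receptors, read 1340, 141 and 212 on its brightest probe set, a ratio of -3.25. Its other probe sets started at 1247 and 1129 and ended under the floor, so their ratios, -3.64 and -3.50, are bounds and the true values are at least as low. Id2, an inhibitor of basic helix-loop-helix factors, read 5358, 1090 and 212, a ratio of -2.30, and 4218 and 694 on another probe set, a ratio of -2.60. Jun, a subunit of the AP-1 transcription factor, read 864, 192 and 228 on the brighter probe set by mean signal (-2.17) and 1281, 137 and 15.3 on the other (-3.23). The probe sets of Jun were alike in direction at 2 h and far apart at 4 h.

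The promoters of these 4 genes, and of the pair of higher genes described further on, are shown because they are the ends of the ranking that several probe sets back. Each is the stretch of 250 bases before the first listed start in RefSeq on GRCm38.p6, read 5′ to 3′ on the gene's strand: Ccn1 at chr3:145649986-145650235 (minus), Rgs16 at chr1:153740103-153740352 (plus), Id2 at chr12:25096093-25096342 (minus), Jun at chr4:95052223-95052472 (minus), Tctex1d2 at chr16:32419452-32419701 (plus) and Bckdk at chr7:127903823-127904072 (plus). Capitals mark matches, on either strand, to any of 8 motifs. These were the TATA box, searched with the letters TATAAA, the GC box with GGGCGG, the cAMP response element with TGACGTCA, the AP-1 site with TGANTCA, the E-box with CACGTG and the TEAD site with GGAATG. The others were the CCAAT box, whose name is its letters, and the CArG box by its standard definition.
Ccn1: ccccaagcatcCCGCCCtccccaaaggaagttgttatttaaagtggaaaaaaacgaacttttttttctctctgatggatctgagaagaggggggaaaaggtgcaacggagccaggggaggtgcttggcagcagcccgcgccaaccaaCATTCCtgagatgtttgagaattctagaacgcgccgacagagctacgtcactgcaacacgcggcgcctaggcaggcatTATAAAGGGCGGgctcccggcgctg
Rgs16: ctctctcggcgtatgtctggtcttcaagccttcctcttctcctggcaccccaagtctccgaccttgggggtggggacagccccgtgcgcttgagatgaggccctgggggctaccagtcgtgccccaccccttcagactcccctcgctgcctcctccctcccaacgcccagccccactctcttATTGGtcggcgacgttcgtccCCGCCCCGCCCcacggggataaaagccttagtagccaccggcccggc
Id2: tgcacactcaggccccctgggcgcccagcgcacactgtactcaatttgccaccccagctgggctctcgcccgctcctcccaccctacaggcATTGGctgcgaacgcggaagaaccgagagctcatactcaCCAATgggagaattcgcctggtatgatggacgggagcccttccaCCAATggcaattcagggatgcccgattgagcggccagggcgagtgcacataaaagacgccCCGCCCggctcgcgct
Jun: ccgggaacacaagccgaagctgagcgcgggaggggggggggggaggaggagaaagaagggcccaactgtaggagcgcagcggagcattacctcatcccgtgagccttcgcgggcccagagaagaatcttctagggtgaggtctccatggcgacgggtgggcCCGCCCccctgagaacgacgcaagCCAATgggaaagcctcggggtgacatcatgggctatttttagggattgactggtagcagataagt
Tctex1d2: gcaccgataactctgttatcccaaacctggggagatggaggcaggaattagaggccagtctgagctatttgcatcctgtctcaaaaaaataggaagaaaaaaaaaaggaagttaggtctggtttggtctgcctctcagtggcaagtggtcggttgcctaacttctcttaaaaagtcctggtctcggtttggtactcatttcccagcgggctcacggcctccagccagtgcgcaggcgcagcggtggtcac
Bckdk: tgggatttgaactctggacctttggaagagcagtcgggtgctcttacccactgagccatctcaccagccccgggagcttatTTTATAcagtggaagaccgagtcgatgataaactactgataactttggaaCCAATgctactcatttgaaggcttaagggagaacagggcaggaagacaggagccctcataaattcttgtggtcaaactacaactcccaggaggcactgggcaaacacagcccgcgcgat

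In the Ccn1 stretch a TATA box stood 25 to 20 bases before the start and abutted a GC box at 19 to 14, and a TEAD match stood at 103 to 98. Rgs16 had a CCAAT box at 68 to 64 and a pair of GC boxes that share 1 base, at 47 to 42 and 42 to 37. Id2 had 3 CCAAT boxes and 1 GC box, Jun had 1 of each, and Bckdk had a TATA match at 169 to 164 and a CCAAT box at 119 to 115. None of these letters was found in the Tctex1d2 stretch, which says only that they are not in this window. A window was listed for 7937 of the 9723 genes, 451 of the lower and 113 of the higher genes. GC boxes were in 60.4% of all windows, 66.1% of those of lower genes and 46.0% of those of higher genes, and TATA boxes in 6.41%, 7.98% and 9.73%. CCAAT boxes were in 36.3%, 35.5% and 37.2%, cAMP response elements in 2.80%, 4.43% and 0.885%, and AP-1 matches in 4.20%, 3.33% and 6.19%. E-boxes were in 8.81%, 7.76% and 4.42%, TEAD matches in 10.3%, 10.6% and 7.96%, and CArG boxes in 1.15%, 1.33% and 1.77%. These shares are descriptions of the letters and were not tested.

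The other lower genes of this ranking by the least extreme probe set covered cytokine signalling, transcription, transport and stress responses. Socs3, a feedback inhibitor of JAK-STAT signalling, went from 723 to 164 and then 117 at 4 h (-2.14), and another probe set from 799 to under the floor. Cebpb, a bZIP transcription factor, went from 2395 to 579 and 122 (-2.05), and its probe sets differed by an SD of only 0.07 at 2 h. At 4 h that SD was 1.70, as the other passing probe set read 754, 195 and 203 at 0, 2 and 4 h. Nfya, a subunit of the CCAAT-binding factor NF-Y, went from 2755 to 582 (-2.24), and Ell, an elongation factor of RNA polymerase II, from 673 to 175 (-1.95). Slc38a2, a neutral amino acid transporter, went from 4383 to 578 (-2.92) on one probe set and from 1340 to 369 (-1.86) on another. Herpud1, which serves degradation at the endoplasmic reticulum, went from 1729 to 489 (-1.82), and Errfi1, an inhibitor of the EGF receptor, from 847 to 234 (-1.86). Sox10, the neural crest and melanocyte transcription factor, went from 11710 to 2640 and 892 and read lower on all 3 of its probe sets, with ratios of -2.15, -2.02 and -1.78. Btg1, an antiproliferative partner of the deadenylase complex, had a ratio of -2.0 with an SD of 0.24. Zfp574 had a ratio of -2.41, and Irf2bpl, the last of the 15, had -1.55. At 4 h most of these genes read lower than at 2 h on the probe set used, as the values of Id2 and Btg1 (104) show, whereas Rgs16, Jun and Ell (326) read higher. Both comparisons share the 0 h array.

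Genes backed by several probe sets were fewer and closer to 0 on the higher side. Tctex1d2, a dynein light chain gene, read 262, 562 and 753 at 0, 2 and 4 h, a ratio of 1.10, and its other probe set read 194 and 428 (1.14). Bckdk, the kinase that inhibits branched-chain amino acid breakdown, read 965, 2023 and 1211, a ratio of 1.07, while its dimmer probe set went from 107 to 483 (2.18). Fank1 went from 156 to 325 (1.06) and Glrx, the thiol-reducing enzyme glutaredoxin, from 217 to 440 (1.02). These 4 sat just past 2-fold, and the SD between probe sets was 0.03, 0.78, 0.02 and 0.12. The next genes in the ranking did not reach 2-fold on the probe set used: Arhgap9 had 0.88, the linker histone gene H1f2 0.84, the retinol and alcohol dehydrogenase gene Adh7 0.82 and the selenoprotein gene Selenok 0.80. Adh7 read 2519, 4445 and 5932 at 0, 2 and 4 h. Fank1 and H1f2 each also have a probe set that did not pass the filter and read lower at 2 h, from 195 to 10.9 and from 322 to 131. On a spike-in scale Tctex1d2, Bckdk, Fank1 and Glrx read 0.89, 0.85, 0.84 and 0.81, all short of 2-fold.

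**Figure D2:**
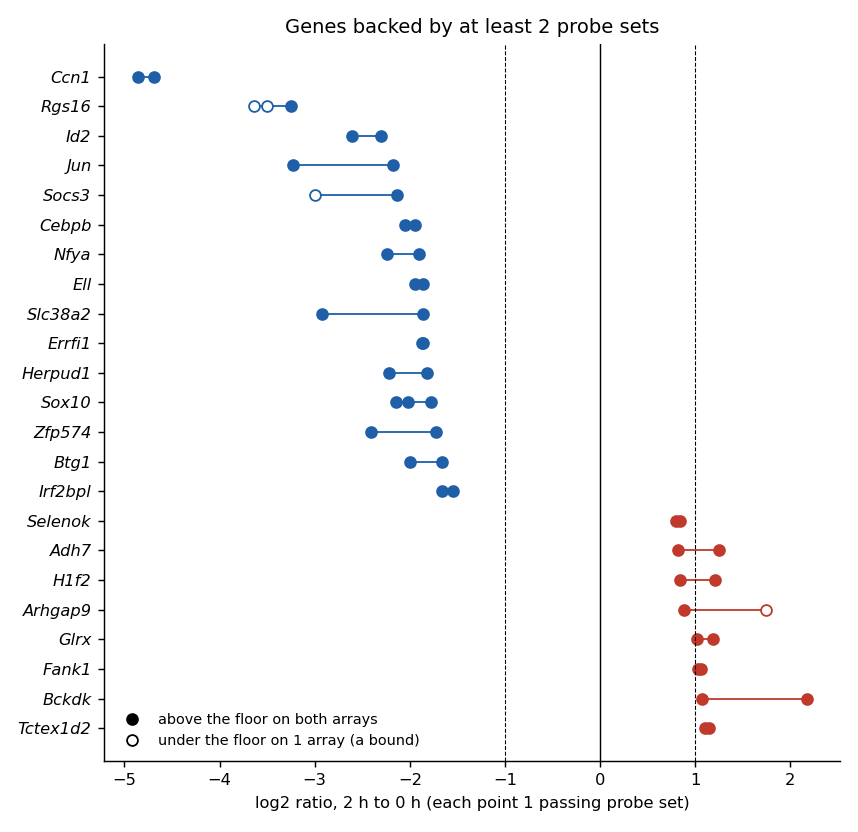
log2 ratio of 2 h to 0 h for every passing probe set of the 15 lower (blue) and 8 higher (red) genes ranked by their least extreme probe set, open points being bounds with 1 array under the floor of 100. All plotted probe sets of the lower genes lie below -1, down to -4.86 for Ccn1, while the higher genes gather around 1.

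Among genes with 1 passing probe set and signals above the floor on both arrays, the 5 lowest ratios were those of Dusp6, Myc, Phlda1, Id3 and Plk2. Dusp6, the phosphatase that switches off ERK, read 4301, 250 and 105 (-4.11), and Phlda1 read 5213, 409 and 328 (-3.67). Myc, a growth-promoting transcription factor, read 1613, 109 and 128 (-3.88), so that at 2 h it was already close to the floor. Id3 read 6002, 588 and 170 (-3.35) and Plk2, a p53-responsive kinase gene, 1243, 133 and 31.4 (-3.23). On the higher side, S100a4, a calcium-binding protein gene linked to cell motility, read 369, 1637 and 1820, a ratio of 2.15. Zfp385a (153 to 717), Atp4b (106 to 434), Arhgap27 (107 to 438) and Lrrc23 (140 to 532) started close to the floor, where a small absolute difference makes a large ratio. None of these 10 genes has a second passing probe set to set against it. Probe sets of Arhgap27 that did not pass the filter went from 139 to 76.4 and from 122 to 156.

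Genes were next grouped into 42 classes by function or family, which share some members and hold 1295 of the 9723 genes, 125 of the 553 lower genes and 10 of the 137 higher genes. Class counts stand beside 5.69% lower, 1.41% higher and a median of -0.01 over all genes. Members outside the naming rule were picked after their values were seen. The immediate early genes had the lowest median of the 42 classes on the scale used, though after quantile normalization the Sox genes lay lower (-1.37 against -1.33): 17 of 25 passing members (68.0%) were at least 2-fold lower, none was 2-fold higher, and the median was -1.53. Beside Ccn1, Myc and Plk2, the early response genes Ier3 (3095 to 388) and Ier2 (1266 to 168), the matricellular gene Ccn2 (6078 to 1004) and the GTPase gene Rhob (11973 to 2260) read lower, with ratios of -3.0, -2.91, -2.60 and -2.41. Fos, the partner of Jun in AP-1, went from 659 to 262 (-1.33). Of the 3 members on the other side of 0 the highest were Maff (0.56) and Srf (0.41), the latter being the factor that binds CArG boxes. So the class held both the lowest ratio in the data and members slightly above 0.

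The ERK feedback class and the class of Id and BMP or TGF-beta feedback genes also had medians under that of all genes. Of 14 ERK feedback genes 8 were lower and none higher, with a median of -1.13. Dusp4 went from 3616 to 617 (-2.55) and Spry2, an inhibitor of receptor tyrosine kinase signalling, from 907 to 185 (-2.29), while Epha2 (0.39) and Lif (0.38) were on the other side of 0. All 13 Id and BMP or TGF-beta feedback genes had ratios under 0, 5 of them 2-fold or more, with a median of -0.89. Beside Id2 and Id3 they were Id1 (1939 to 662, -1.55), the Smad repressor gene Skil (-1.69) and the inhibitory Smad gene Smad7 (-1.28), and Pmepa1 (2877 to 2788, -0.05) was nearest to 0. The dual-specificity phosphatase genes were mixed: 4 of 15 were lower and 7 were above 0, with Dusp18 at 0.99. Likewise 1 of 8 RGS genes was lower, namely Rgs16, and Rgs19 read 0.38. Of 15 YAP target genes 5 were lower, Ccn1 and Ccn2 among them, and the median was -0.13.

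Several families of transcription factors had medians under that of all genes in each of 4 scalings. Of 12 melanocyte lineage regulators 6 were lower and none higher, with a median of -0.96. Mitf, the master regulator of melanocytes, went from 6576 to 2031 and 739 (-1.70, SD 0.25), and Tfap2a from 2159 to 422 and 441 (-2.35, SD 0.65 over 3 probe sets). Of the 13 melanin and melanosome genes, which are known targets of those regulators, none was 2-fold lower or higher, and Gpnmb (0.50) and Pmel (0.38) were at the top while Rab27a (-0.71) was at the bottom. That class had a median of 0.17, but its position against all genes ran from -0.16 to 0.18 over the scalings and changed sign. All 5 passing Sox genes were under 0 and 4 were lower. Sox4 had a ratio of -1.15 on the probe set used, and its 6 passing probe sets ran from -1.37 to -0.24, with 2 of them at least 2-fold lower. Sox11 had -1.27, and its 6 ran from -1.27 to 0.03, with 1 of them at least 2-fold lower. Sox21 read 1418, 89.9 and 1611 at 0, 2 and 4 h, a bound at 2 h on 1 probe set that was back at its starting level on the 4 h array. Of 131 genes with Zfp names, most of which encode DNA-binding zinc finger proteins, 27 were lower, 2 higher and 104 under 0, with a median of -0.40. Zfp212 (1009 to 192, -2.40) was among the lowest and Zfp385a the highest. Forkhead genes (2 of 15 lower, median -0.49) were led by Foxj3 (797 to 224, -1.83), and Kruppel-like factor genes (2 of 11, -0.44) by Klf6, a bound, and Klf7 (-1.42, SD 0.18 over 3 probe sets). The Myc, Max and Mxd network was different in its counts: of 10 genes 1 was lower, Myc, and 2 were higher, Mxd4 (153 to 382, 1.32, with 0.01 on another probe set) and Zbtb17 (307 to 625, 1.03). Its median was -0.07, and its position against all genes ran from -0.093 to 0.048 over the scalings and changed sign. On the spike-in scale 2 of its 11 passing genes were lower and 1 higher. Zbtb17 also has a probe set that did not pass the filter and read lower at 2 h, from 191 to 119. Among basic helix-loop-helix repressors Bhlhe40 (1938 to 335, -2.53) and Hes1 (645 to 150, -2.10) were lower, and the median of the 9 was -0.18.

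Among genes that act on chromatin and RNA the counts varied by class. Of 39 histone lysine methyltransferase and demethylase genes 10 were lower, none higher and 34 under 0, with a median of -0.44. Examples are the demethylase genes Jmjd1c (695 to 231, -1.59) and Kdm3a (1481 to 558, -1.41) and the methyltransferase gene Kmt2b (1055 to 422, -1.32). By contrast 1 of 36 chromatin remodelling and acetylation genes was lower, the acetyltransferase gene Kat6a (-1.31), with a median of -0.10, and 2 of 50 genes of RNA polymerase II, Mediator and elongation were lower, Ell and the kinase gene Cdk12 (-1.26). Hexim1, which encodes an inhibitor of the elongation kinase P-TEFb, read higher on the 2 h array alone, with 1189, 2207 and 933 at 0, 2 and 4 h (0.89). Of 21 mRNA decay adaptor genes 6 were lower, with a median of -0.37. They include Tob1 (1646 to 443, -1.89) and Zfp36l2, which binds AU-rich elements (3838 to 1102, -1.80). Of 13 host genes of small nucleolar RNAs 5 were lower. Snhg5 (1158 to 192, -2.59) and Snhg1 (4507 to 1652, -1.45, SD 0.27 over 4 probe sets) were among them, whereas Snhg6 and Snhg8 both read 0.15. Among 44 splicing factor genes the kinase gene Clk1 was the single lower one (797 to 256, -1.64). Eif5 (6722 to 2550, -1.40, SD 0.33 over 5 probe sets) and Eif4a2 (8208 to 3330, -1.30) were the lowest-lying translation factors of 45 genes with Eif names, whose median was 0.12.

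Damage, stress and survival genes were mixed. Of 25 p53 target genes 3 were lower and none higher, with a median of -0.37: Plk2, the p53 ubiquitin ligase gene Mdm2 (4567 to 1509, -1.60, SD 0.05) and the phosphatase gene Ppm1d (-1.13). Ccng1 was the highest at 0.41 (3728, 4953 and 6670 at 0, 2 and 4 h). None of 36 DNA repair and checkpoint genes was past 2-fold in either direction, and their ratios ran from -0.75 to 0.63. Of 12 passing BCL2 family genes 1 was lower and 1 higher, 6 were under 0 and 6 above, and the median was -0.096. The lowest was Mcl1, which encodes a short-lived survival protein and read lower on all 6 passing probe sets, with ratios from -1.09 to -2.56. The highest was Bad, a death-promoting member, at 732 and 1697 (1.21, SD 0.63). Its other passing probe set read 544 and 679 (0.32). Of 34 genes of the unfolded protein and integrated stress responses 9 were lower and 18 above 0, so a median of 0.04 describes few of them. Beside Cebpb and Herpud1, members on the lower side include the transcription factor genes Atf4 (10918 to 4477, -1.29), Xbp1 (8081 to 3622, -1.16, SD 0.75 over 4 probe sets) and Ddit3 (1628 to 793, -1.04). Its other end held Manf, a secreted factor of the endoplasmic reticulum (9813 to 18055, 0.88), and the transporter gene Slc7a5 (4715 to 8448, 0.84). Nfkbia, which encodes an inhibitor of NF-kB, went from 4153 to 1662 (-1.32, SD 0.46 over 5 probe sets). Of 34 mitosis genes Ccnf (1389 to 417, -1.74) was the single lower one, and none of 39 DNA replication genes was past 2-fold.

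Of the 7 classes of mRNAs counted as long-lived, 3 had medians above 0 and above that of all genes in each of the 4 scalings. Respiratory chain genes had a median of 0.34 with 79 of 84 above 0, proteasome subunit genes 0.30 with 34 of 37, and mitochondrial ribosomal protein genes 0.23 with 61 of 75. On the spike-in scale, which lowers all ratios, these medians were 0.12, 0.087 and 0.015. Against all genes, the medians of the glycolysis class (-0.063 to 0.12) and the cytoskeletal class (-0.023 to 0.22) changed sign over the scalings, as did that of the melanosome class above. Rps19 (23702 to 40614, 0.78) was the highest and Rps27 (-0.91) the lowest of 42 cytosolic ribosomal protein genes, whose median was 0.28 but whose position against all genes ran from -0.0037 to 0.29 over the scalings and changed sign. Single members past 2-fold were few: Ndufaf2 (708 to 1519, 1.10), an assembly factor of complex I, the glycolytic aldolase gene Aldoc (126 to 312, 1.31), and on the lower side the tropomyosin gene Tpm2 (533 to 226, -1.24). Tubulin genes Tuba1a (0.85) and Tubb2a (0.98) were at the upper end of the cytoskeletal class.

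**Figure D3:**
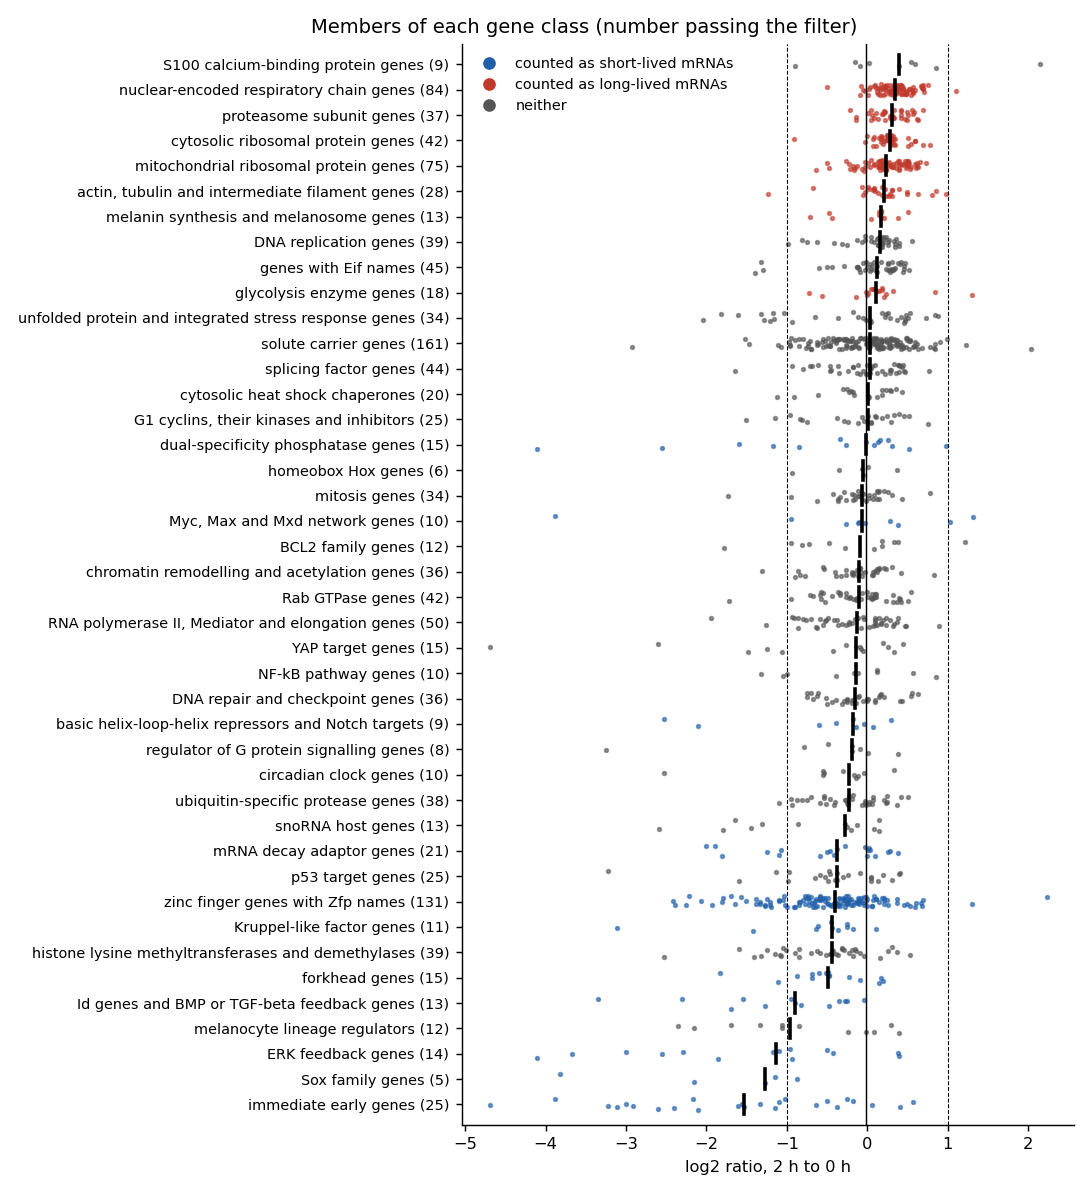
log2 ratio of 2 h to 0 h of each passing member (points) of the 42 gene classes ordered by their median (black bars), with the number of members in brackets. Colours give classes counted as short-lived or long-lived mRNAs, and dashed lines mark 2-fold. The classes were drawn from general knowledge, but with earlier results of these data known. Medians run from -1.53 for immediate early genes to 0.39 for S100 genes, and most classes in between also have members past -1.

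To describe the contrast as a whole, 11 classes counted as short-lived and 7 counted as long-lived were each pooled. The short-lived ones were the immediate early, ERK feedback, Id and BMP or TGF-beta feedback, dual-specificity phosphatase and mRNA decay adaptor genes. With them were the Myc network, Kruppel-like factor, Sox, basic helix-loop-helix repressor, forkhead and Zfp genes, the last with 131 passing members. Whole classes were counted this way, without half-lives of their members. The classes were chosen with earlier results of these data known, so the contrast is a description and not an independent check. Of 256 genes in the short-lived classes 69 (27%) were lower and 4 (1.56%) higher, and the median was -0.44. Of 297 genes in the long-lived classes 1 (0.337%) was lower and 2 (0.673%) higher, and the median was 0.27. Without the Zfp genes the short-lived share was 33.6% of 125 genes, and without the immediate early genes 22.5% of 231. Relative to all genes, the short-lived median lay between -0.43 and -0.36 and the long-lived median between 0.078 and 0.28 over the 4 scalings. The pools differ in signal too, since most long-lived genes are bright, and bright genes seldom passed 2-fold: the share lower was 8.72% at a mean signal under 400, 8.03% from 400 to 1000, 2.68% from 1000 to 2500, 1.27% from 2500 to 8000 and 0 of 460 genes from 8000 on. Within bins of signal the short-lived share was 22.9%, 32.1%, 25.6% and 17.6% up to 8000, against 8.24%, 7.17%, 2.31% and 1.14% of genes in neither pool. The short-lived share was the larger in each of these bins, though the last held only 17 short-lived genes, 3 of them lower. Whether signal accounts for part of the contrast was not tested. For long-lived genes the dim bins are nearly empty, with 1 lower of 13 genes under 400 and 0 of 12 from 400 to 1000. From 1000 to 2500, 0 of 57 long-lived genes were lower.

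**Figure D4:**
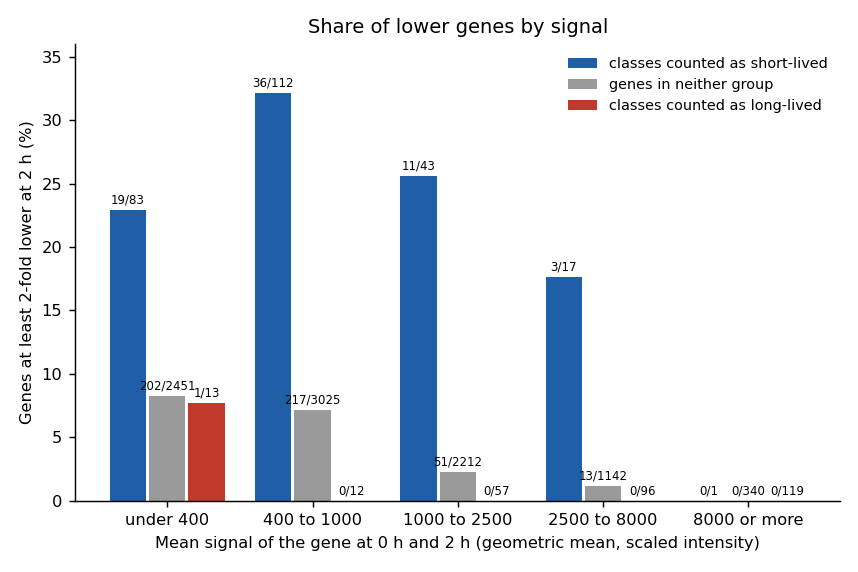
Share of genes at least 2-fold lower at 2 h (percent), by bin of mean signal at 0 h and 2 h, for classes counted as short-lived (blue), classes counted as long-lived (red) and genes in neither (grey); figures over the bars are lower genes over all genes of the bin. The blue bars stand between 17.6% and 32.1% in the first 4 bins and the grey bars run from 8.24% down to 1.14%. The classes were chosen with earlier results of these data known.

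How far such ratios can be trusted was read from genes with several passing probe sets, which share the arrays and so leave out variation between cultures. Among the lower genes 152 had several passing probe sets, and 133 of these (87.5%) had all of them under 0 and 60 had all of them at least 2-fold lower. Of 32 higher genes, 22 (68.8%) had all above 0 and 5 had all at least 2-fold higher. Over all 3905 genes with several probe sets 57.3% had 1 sign throughout, many of them lying near 0. No gene had passing probe sets 2-fold lower and 2-fold higher at once. The probe set that ranked next in signal gives a reading that played no part in counting the gene. It was under 0 for 141 of the 152 lower genes and at least 2-fold lower for 73 (48.0%), against 5.51% of all 3905 genes, and it was never 2-fold higher. For the higher genes it was above 0 in 23 of 32 and 2-fold higher in 5 (15.6%), against 2.05% of all. Where the first ratio was between -3 and -2, the next probe set had a median of -1.53 over 18 genes, and where it was between -2 and -1, a median of -0.89 over 132 genes. Across genes, which are not independent replicates and share both arrays, the pair of ratios had a Pearson r of 0.49 and a Spearman rho of 0.45.

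**Figure D5:**
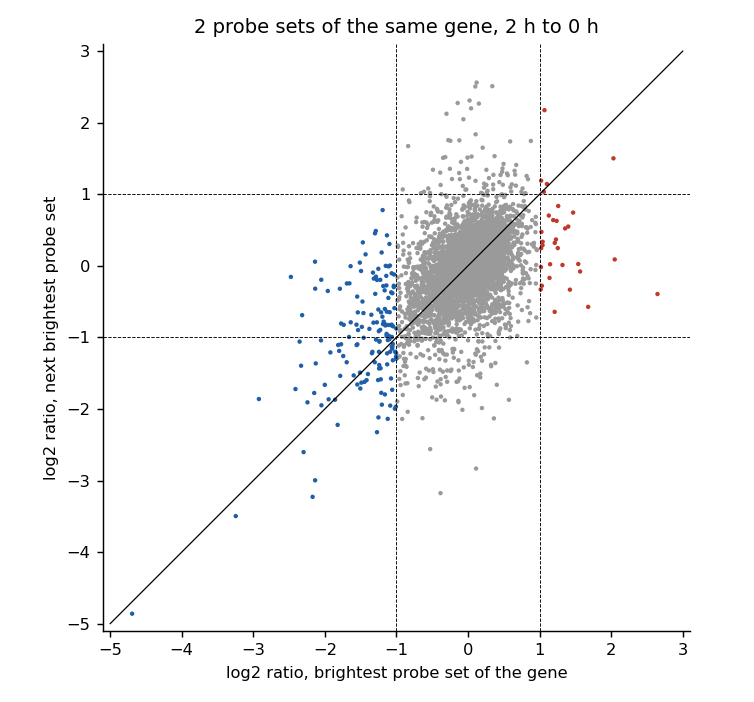
log2 ratio of the next brightest probe set against that of the brightest for the 3905 genes with at least 2 passing probe sets (blue, lower genes; red, higher genes; grey, within 2-fold), with the diagonal solid and 2-fold lines dashed. Of the 152 blue points 141 lie below 0 on the vertical axis and 73 at or below -1, whereas 5 of the 32 red points lie at or above 1.

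Probe sets of a gene matched more closely at higher signal. Where the dimmer of the pair had a signal of 200 to 400, the SD was 0.52 and 15% of pairs were at least 2-fold apart. From 400 to 1000 the SD was 0.34, from 1000 to 4000 it was 0.24, and from 4000 on 0.17 with 0.292% of pairs 2-fold apart. Pooled over all genes the SD was 0.40, so single ratios around 1 from dim probe sets, which include most higher genes, are the least certain here. In the short-lived classes 50 of 89 genes with several probe sets had all under 0 and 7 all above, and in the long-lived classes the numbers were 9 and 98 of 141.

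Some genes gave different answers on different probe sets. Pax3, a melanocyte lineage factor gene, was lower on all 3, but by -3.96 (1912 to 123), -1.73 (837 to 252) and -1.06 (1588 to 762). Jade1 went from 1699 to 386 on one probe set (-2.14) while the others read 0.06 and 0.39, and Srr, the serine racemase gene, from 1283 to 231 (-2.48) while the others read 0.04 and -0.15. Ubox5 read -2.83, -0.15 and 0.11. Hip1, a clathrin adaptor gene, had 1 probe set that went from 368 to under the floor, a bound of -1.88, and 3 that read between 0.06 and 0.76. In Jade1, Srr, Ubox5 and Hip1 the low ratio rests on 1 of several probe sets, and which transcripts each probe set reads was not analysed here. On the higher side Rpl37a, a ribosomal protein gene, read 0.18 and 0.31 on bright probe sets (26016 to 29551, and 31460 to 39003) but 2.89 on a dim one (208, 1537 and 234 at 0, 2 and 4 h). Irak1, a kinase gene of interleukin-1 receptor signalling, had 1 probe set under the floor at 0 h with a bound of 2.36 while the others ran from -0.22 to 0.71, and the splicing gene Snrpd3 had a bound of 1.95 beside 0.45 and -0.65. The dim Rpl37a probe set and that of Irak1 carry the _x_at suffix, which marks probes that may also bind other transcripts. Of 1167 passing probe sets with that suffix 3.86% were lower and 3.43% higher, against 6.27% and 1.56% of 10796 with a plain _at name. Ccn1's brighter probe set has the same suffix and the other has _a_at, which marks transcripts of 1 gene.

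Genomic span showed no steady order. In GRCm38.p6 the median span was 23.5 kb for lower, 16 kb for higher and 23.2 kb for all genes. Of 1155 genes spanning under 5 kb 8.48% were lower, against 4.71% from 5 to 20 kb and 4.65% from 20 to 50 kb. From 50 to 100 kb 7.51% were lower, from 100 to 200 kb 5.91%, and from 200 kb on 5.81% of 396 genes. In the same order of bins the shares higher were 2.08%, 1.63%, 1.03%, 0.695%, 1.71% and 2.27%. Genes under 5 kb nonetheless had the highest median ratio, 0.12, and genes of 50 to 100 kb the lowest, -0.14. Across 9712 genes, which are not independent replicates, the ratio and log span had an r of -0.094 and a rho of -0.15.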

How the data were processed

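Total RNA of B16 cells was hybridised to 1 array per time point. The authors deposited linear probe set intensities, already scaled, since their 2% trimmed mean is 150 on each array. The submitters' processing notes name GCOS 1.4; how signals were computed from probes is not given in the sources used. Deposited files of other run settings (chip type, fluidics module) were read for those settings, per the file headers.

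These intensities were multiplied per array to bring the trimmed mean to 500, raised to a floor of 100 where below it, and put on a log2 scale. Probe sets passed with a geometric mean of at least 200 over the 3 arrays. Controls (64) were left out. Of the rest, 34945 probe sets carry 1 symbol in the platform annotation, 34741 of them updated to RefSeq by Entrez gene ID; 932 listed probe sets carry several symbols, and 9211 are unlisted and stay unnamed. Counts use a fixed size of 2-fold, with no test, p-value or standard error. The SD given with a gene is over its passing probe sets.

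The genes named were drawn from the 15 lowest and 8 highest with at least 2 passing probe sets, ranked by the least extreme of probe sets of 1 sign and with the probe set used above the floor, the 5 lowest and 5 highest with 1 probe set, the 2 lowest and 2 highest of each class, the 8 widest genes with at least 3 probe sets, and for each cell type its 3 brightest markers. Clone and predicted names were left out. Not all of these are printed. Others were chosen after their values were seen. The classes, gene lists and rules were chosen with earlier results of these data known. Alternatives (12) covered scaling, floor, offset, filter and choice of probe set. The counting step was tested on simulated data, with changes well past 2-fold planted in bright genes and less noise than the spread between probe sets. That test does not cover changes near 2-fold or in dim genes. Promoters came from RefSeq on GRCm38.p6. Software was matplotlib 3.10.9, scipy 1.17.1, pandas 2.3.3 and numpy 2.4.6 under Python 3.11.15.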

Additional observations from a re-analysis of the deposited data

How the results depend on the processing

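The counts of 553 lower and 137 higher genes moved with the scale, the filter and the floor. Equal medians, which shifted the median of all genes by 0.15, gave 231 higher genes, quantile normalization 233, and a spike-in scale, which shifted it by -0.22, 917 lower and 71 higher. With a floor of 200, the filter still being taken at the floor of 100 because every probe set would pass otherwise (a choice made after seeing the data), there were 79 higher genes. Without a filter there were 1027 lower and 343 higher, and with a filter of 400 239 and 34. The share of genes with probe sets of 1 sign was 95.7% of lower genes with a filter of 400. Without a filter it was 35.9% of lower and 15.2% of higher genes, because probe sets at the floor on both arrays have a ratio of 0. Lower genes outnumbered higher genes in all 12 alternatives. The deposited scale, counted among the 12, is no check, since it differs from the scale used by practically the same factor on each array. No named gene past 2-fold changed sign. Medians of several classes near 0 did, as that of the solute carrier genes, which was 0.04 and ran from -0.18 to 0.19 over 4 scalings. Of the 553 lower genes, 368 remained with equal medians and 389 after quantile normalization. Ccn1 ran from -4.91 to -4.40 and S100a4 from 1.93 to 2.31 over the alternatives run for them. Tctex1d2, Bckdk, Fank1 and Glrx were short of 2-fold on the spike-in scale, and Fank1 read 0.70 with a floor of 200. With an offset of 50, Tctex1d2 read 0.97, Glrx 0.88 and Fank1 0.86. The number of arrays limits the precision, and dim probe sets are the least precise.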

Other observations

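Of 1400 passing probe sets that the annotation does not list, 86 (6.14%) were lower by 2-fold or more at 2 h and 42 (3.0%) higher, with a median ratio of -0.02. Genes read from 1 probe set were lower in 6.89% and higher in 1.80% of 5818 cases, and genes with 4 or more passing probe sets in 4.10% and 0.205% of 488, the median signal being 489 and 2012.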
